A study of Mus musculus with 38 samples.

Results

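The loss of the inhibin alpha subunit gene, Inha, was examined in male fetal germ cells (gonocytes) of mice at embryonic day 13.5 (E13.5). The comparison held 2 Inha KO and 2 Inha WT animals, 4 of the 19 animals of the series. They were chosen by their labels as all animals of the Inha line, and their 4 columns of counts form a table of their own with 9798 genes. All of them carried an Oct4-eGfp reporter, which marks germ cells, and had the strain label C57/Bl6/129svJ. The 2 KO animals lacked Inha in every cell of the embryo, because the deletion was constitutive and heterozygous mates were crossed. Each KO had a WT littermate, so that pair 1 and pair 2 are 1 KO and 1 WT embryo of a litter each. The paired testes of an embryo were dissociated, living GFP-positive cells were collected by FACS, and their RNA was amplified before sequencing. Other animals of the series belonged to an Inhba line, and its 4 KO and 3 WT animals at E13.5 are used below for comparison.

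Inhibin alpha joins an activin beta subunit to form inhibin, which blocks activin signalling. Without it the beta subunits pair only with each other, so that the Inha KO is used as a model of high activin A. The Inhba KO lacks the beta A subunit and therefore activin A. Activins bind type II and type I receptors on the cell surface, which phosphorylate SMAD2 and SMAD3. At E13.5 the gonocytes of the mouse testis are leaving the pluripotency-like state of the primordial germ cell. By the study's account they enter mitotic arrest from this age on, and not all at the same time.

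The counts per animal summed to 11917167 in KO pair 1 and 6320539 in KO pair 2, and to 9832625 in WT pair 1 and 8493193 in WT pair 2. These totals cover only the genes that the authors kept, so they are not the whole depth. A count of 3 equals 0.252 to 0.475 cpm (counts per 1000000 of these totals). Intervals and limits from counts cover counting error only. Pearson correlations of log2 cpm were 0.960 and 0.935 between the littermates of pairs 1 and 2, 0.928 between the KO animals and 0.936 between the WT animals. They were 0.920 between KO pair 1 and WT pair 2 and 0.937 between KO pair 2 and WT pair 1, which share neither litter nor genotype. Inha itself, Inhba and the somatic marker Nr5a1 are not among the genes of the table, so the deletion could not be checked in these cells. In the gonocytes of the Inhba line at E13.5, Inha stood at a mean of 0.632 cpm in KO and 0.523 cpm in WT animals, under the minimum of 2 cpm applied to the Inha table.

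Germ cell markers were abundant in all 4 animals, and the 8 of 10 listed markers that were measured summed to 4038 and 3899 cpm in KO, against 3827 and 4473 cpm in WT gonocytes. Ddx4, a germ cell RNA helicase, had 629 and 319.8 cpm in KO and 574 and 412 cpm in WT animals. Of 20 Sertoli cell markers, 8 were measured, and they summed to 76.9 and 129.6 cpm in KO, against 49.2 and 101.3 cpm in WT gonocytes. Amh, Dhh and Sox8, defining markers of Sertoli cells, were not among the genes kept. Sox9 had 7.89 and 9.97 cpm in KO and 3.86 and 15.3 cpm in WT animals. No erythroid marker, 2 interstitial, 2 endothelial, 3 Leydig cell and 1 macrophage markers were in the table.

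A gene was called when its edgeR quasi-likelihood test, with the litter pair as a block, gave a Benjamini-Hochberg adjusted p under 0.05 and its change exceeded 1.5-fold. Of the 9798 genes, 35 were called, or 0.357%. Expression of 25 genes was higher in Inha KO gonocytes (0.255% of genes) and of 10 genes lower (0.102%). Ribosomal protein genes, ribosomal RNA loci, Mroh1, Egr1, Utf1, Sox12, Meg3 and Rian were among those that rose, and Cldn11, Plcg2, Etv1, L1td1 and Rbm46 among those that fell. All 35 moved the same way in both pairs, against 55.9% of all genes, and 24 exceeded 1.5-fold in both, against 5.47% of all genes. In cpm, the KO and WT animals did not overlap for 31 of the 35, against 33.6% of all genes. The 35 were selected by a test on these same pairs, so these shares follow in part from the selection. They are not a replication. An unadjusted p under 0.05 was found for 913 genes (9.32%), 451 of them higher (4.6%) and 462 lower (4.72%) in KO.

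These calls depended on the design of the test. With 4 animals and a block, 1 residual degree of freedom was left per gene, and edgeR set the prior degrees of freedom to infinity for most genes, so that the spread of a gene came from genes of similar level. Without the litter block 0 genes were called by edgeR, with 450 genes at an unadjusted p under 0.05, and DESeq2 with the block called 12 genes, all among the 35. With 1 animal left out, which leaves no residual degree of freedom for the block, edgeR without the block called 16 genes without KO pair 1, 19 without KO pair 2, 3 without WT pair 1 and 0 without WT pair 2. The smallest p that an exact permutation test allows with 2 animals against 2 is 0.333, so such a test could not pass the threshold for any gene.

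More genes were called between litters than between genotypes. Pair 1 against pair 2 gave 240 called genes (2.45%), 110 higher (1.12%) and 130 lower (1.33%) in pair 1, and 14 of the 35 genes called by genotype were also called by litter. The fold changes of both pairs had a Pearson r of 0.0766 and a Spearman rho of 0.112 across the 9798 genes. These genes are not independent replicates, and the fold changes of a pair share its litter. Genes beyond 1.5-fold in opposite directions in the pairs numbered 405 (4.13%), and those beyond it in the same direction 536 (5.47%), of which 383 were higher (3.91%) and 153 lower (1.56%). The median absolute log2 difference was 0.26 between the littermates of pair 1 and 0.38 between those of pair 2, compared with 0.34 between the KO animals and 0.35 between the WT animals.

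**Figure D1:**
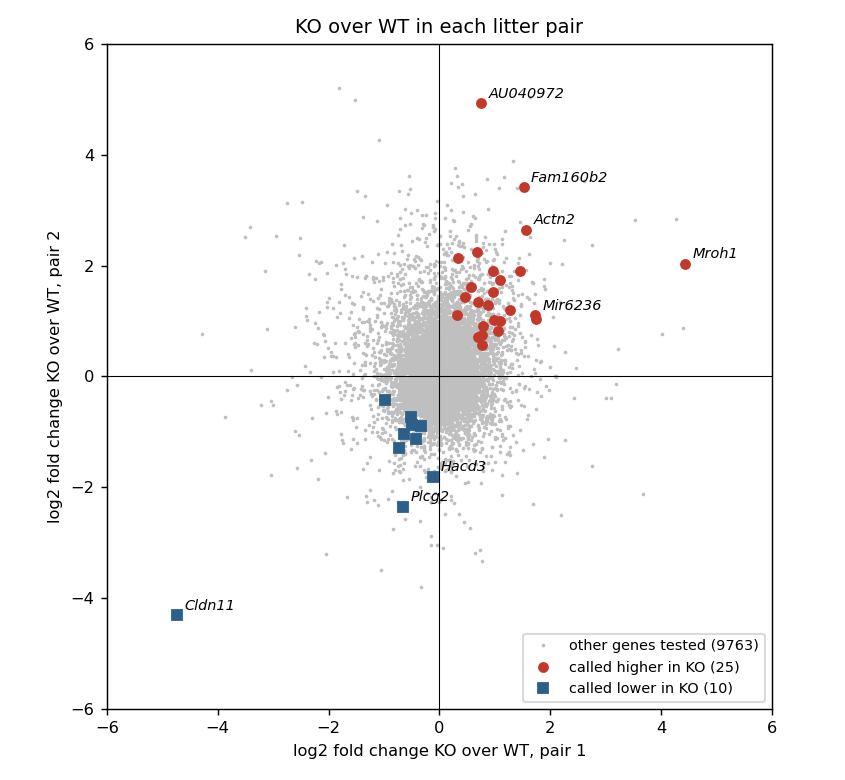
Log2 fold change of Inha KO over WT in litter pair 1 (horizontal axis) and in pair 2 (vertical axis), a point for each of 9798 genes, from TMM-normalised log2 cpm with a prior count of 2. The 25 genes called higher (red circles) all lie above 0 in both pairs and the 10 called lower (blue squares) below 0 in both, while the other genes (grey) spread around 0 with no clear diagonal. The called genes were selected by a test on these same pairs.

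Genes for the proteins of the cytosolic ribosome were among those called. Of 82 listed, 70 were measured, and 6 rose in Inha KO gonocytes, against 0.255% of all genes, among them Rps15, Rps25, Rps3 and Rpl32. None fell, 59 of the 70 had a positive fold change, against 4950 of all 9798 genes, and the median log2 fold change was 0.41, against 0.01 over all genes. The medians were 0.52 in pair 1 and 0.44 in pair 2. KO and WT animals did not overlap for 40 of the 70, all higher in KO, against 22.3% of all genes in that direction. On the TMM scale these were 32 of 70 against 16.8% of all genes higher and 17.1% lower, whereas the totals had given 22.3% and 11.3%. The list holds genes that the study named for these animals, so its count is not independent evidence of the direction. No ribosomal protein gene was called without the litter block, and 1 (Rps3) was called by DESeq2. In fits without the block, the median log2 fold change was 0.31 without KO pair 1 and 0.57 without KO pair 2. It was 0.56 without WT pair 1 and 0.40 without WT pair 2.

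Rps25, a protein of the small subunit, had 108.8 and 59.2 cpm in KO gonocytes, against 53.3 and 26.3 cpm in their WT littermates. Its log2 fold change was 1.01 ± 0.25 (SE, n = 2 pairs, edgeR adjusted p = 0.0224), and it was close to a doubling in each pair (0.99 and 1.02). Rps3, which lies at the entry of the mRNA channel, had 442 and 209.0 cpm in KO and 207.4 and 107.03 cpm in WT animals. Within each litter the KO value was about double, but KO pair 2 hardly exceeded WT pair 1. The same was seen for Rps15, with 106.8 and 49.7 cpm in KO and 48.7 and 22.4 cpm in WT gonocytes. Rpl32, of the large subunit, had 263 and 196.0 cpm in KO and 150.01 and 105.8 cpm in WT animals. For these 4 genes both KO animals lay above both WT animals. Rplp1, a stalk protein of the large subunit, was not called at 64.2 and 43.4 cpm in KO and 29.8 and 17.8 cpm in WT gonocytes (log2 1.10 ± 0.33, SE, n = 2 pairs, edgeR adjusted p = 0.0977). Ribosomal protein genes have many processed pseudogenes, and how the counting shared reads between copies is not given in the sources used here.

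Stretches from 100 bases before to 20 bases after the transcription start are shown for 3 of these genes that rose together. CCGGAAG, an extended form of the sites that ETS family factors such as Etv1 bind, is present in 1 and absent from 2. The sequences are from RefSeq (GRCm38.p6), 5′ to 3′ on the strand of the gene, and capitals mark CCGGAAG. Shorter or other forms of ETS sites were not searched or marked.
Rps25, chr9:44407614-44407733, plus strand: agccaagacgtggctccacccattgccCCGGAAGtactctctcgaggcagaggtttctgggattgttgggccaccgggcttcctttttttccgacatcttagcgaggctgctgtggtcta
Rps3, chr7:99483690-99483809, minus strand: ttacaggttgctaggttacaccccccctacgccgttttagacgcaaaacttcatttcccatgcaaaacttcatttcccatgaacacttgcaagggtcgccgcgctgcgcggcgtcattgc
Rps15, chr10:80292331-80292450, plus strand: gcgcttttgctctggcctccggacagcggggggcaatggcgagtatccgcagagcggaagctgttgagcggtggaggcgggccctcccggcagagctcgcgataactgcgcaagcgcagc
The full RefSeq windows run from 250 bases before to 50 after the start and were found for 7316 of the 9798 genes. CCGGAAG was searched on both strands and occurred in a window of 22.6% of these genes and of 24 of 54 ribosomal protein genes with a window (44.4%). It occurred for Rps25 and Mark2 of the 15 genes called higher with a window and for none of the 9 called lower. GCGTGGGCG, bound by EGR factors, occurred for 112 of the 7316 genes (1.53%) and for none of the called genes. A match describes letters in a window and not a bound site.

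No nuclear-encoded gene of the respiratory chain was called. Of 67 measured genes, 53 had a positive fold change, and the median log2 fold change was 0.37. It was 0.18 without KO pair 1 and 0.57 without WT pair 1, in fits without the block. Levels were higher in both KO animals than in both WT animals for 35 of the 67, against 22.3% of all genes, and with TMM for 26 of the 67, against 16.8%. Cox6a1, of cytochrome c oxidase, had 59.8 and 38.8 cpm in KO and 30.5 and 15.9 cpm in WT gonocytes (log2 1.03 ± 0.34, SE, n = 2 pairs, edgeR adjusted p = 0.182). Mitochondrial ribosomal protein genes had a median of 0.20 (68 measured, 0 called), whereas translation initiation and elongation factors had a median of -0.06 (38 measured). Of these factors only Eif3j2 was called, lower in KO, against 0.102% of all genes called lower.

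**Figure D2:**
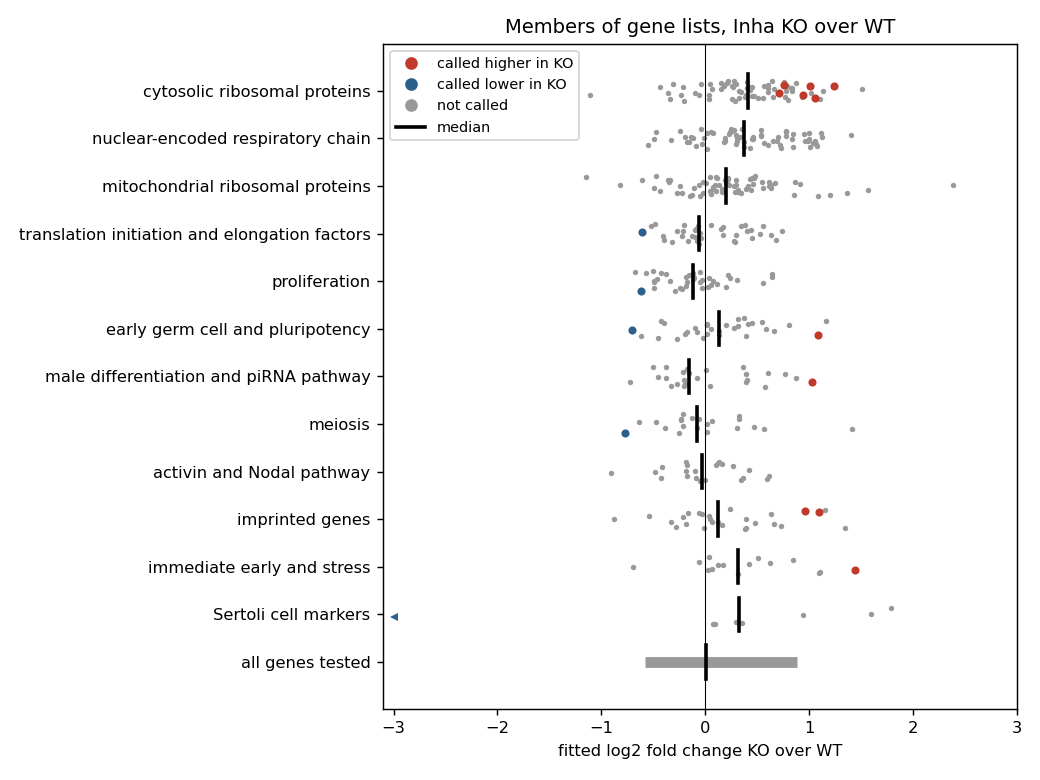
Fitted log2 fold change of Inha KO over WT for the measured members of 12 gene lists (points, coloured where called), with the median of each list (black bar) and, for all genes tested, the range from the 5th to the 95th percentile (grey bar). Cytosolic ribosomal protein and respiratory chain genes have medians of 0.41 and 0.37, and Cldn11, at -6.50, is drawn as an arrowhead at -3.

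Of 15 listed ribosomal and other structural RNA loci, 4 were measured and 3 of them rose, against 0.255% of all genes. Rn18s-rs5, a copy of 18S ribosomal RNA, held 1.92% and 0.877% of the counts in KO gonocytes, against 0.877% and 0.236% in WT gonocytes. Its log2 fold change was 1.42 ± 0.18 (SE, n = 2 pairs, edgeR adjusted p = 3.15e-11), but KO pair 2 and WT pair 1 had the same level, so the rise was within litters and the groups overlapped. Yam1, which is Gm42418 in the GENCODE M21 annotation (chr17:39846958-39848788), lies on the opposite strand of Rn18s-rs5 (chr17:39846353-39848827), and it is not stated that strand was used in counting, so these counts cannot be told apart. Yam1 had 134.5 and 137.5 cpm in KO and 81.8 and 26.1 cpm in WT gonocytes. The other called loci of the list were Mir6236 and Rn7sk, the 7SK RNA that holds the elongation factor P-TEFb inactive. Rn7sk had 380.3 and 191.0 cpm in KO and 298.1 and 79.6 cpm in WT animals. Its log2 fold change turned to -0.078 without KO pair 1 and to -0.11 without WT pair 2, in fits without the block. With these loci and the ribosomal protein genes left out of the normalisation, 34 of the 35 genes were still called and none was added.

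Mir6236 is a locus of 123 bases (chr9:110281287-110281409, plus strand) with 1705 and 463 cpm in KO gonocytes, against 499.8 and 193.6 cpm in WT gonocytes. These are reads of amplified total RNA and not of the mature miRNA, whose sequence from RefSeq (GRCm38.p6) is shown to mark the place, with its seed, bases 2 to 8, in capitals.
mmu-miR-6236, chr9:110281353-110281371, plus strand: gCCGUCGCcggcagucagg
Among 141767 GENCODE M21 transcripts, this sequence was found only in Mir6236 itself. Only these 19 bases and only annotated transcripts were searched, so the search cannot show that the reads are unique to this locus. KO pair 1 stood far above the other animals, and KO pair 2 lay below WT pair 1.

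Mroh1 had the largest rise of the genes called, although genes that were not called had larger fold changes. Its transcripts (chr15:76380261-76453038) had 106.0 and 35.9 cpm in KO gonocytes, against 4.58 and 7.77 cpm in WT gonocytes (log2 3.27 ± 0.38, SE, n = 2 pairs, edgeR adjusted p = 6.55e-14). Both KO animals were above both WT animals, with a log2 difference of 4.43 in pair 1 and 2.03 in pair 2. The neighbouring gene Cyc1, which encodes cytochrome c1 and lies upstream on the same strand (chr15:76343523-76346260), had 131.8 cpm in KO pair 1 and 22.2 cpm in KO pair 2, and 14.8 and 26.3 cpm in WT gonocytes. It was therefore high in 1 KO animal only and was not called (edgeR adjusted p = 0.927). The end of Mroh1 overlaps that of Bop1 on the opposite strand, and Bop1, a ribosome biogenesis factor, had 16.4 and 13.6 cpm in KO and 15.2 and 7.65 cpm in WT gonocytes.

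AU040972, annotated as an antisense RNA, had 11.2 and 50.6 cpm in KO and 6.41 and 1.30 cpm in WT gonocytes, so that pair 2 carried most of the difference (log2 0.76 in pair 1 and 4.93 in pair 2). Fam160b2 had 27.0 and 38.4 cpm in KO, against 9.05 and 3.06 cpm in WT gonocytes (log2 2.46 ± 0.48, SE, n = 2 pairs, edgeR adjusted p = 0.000267). Csf2ra, the alpha chain of the GM-CSF receptor, had 32.8 and 50.2 cpm in KO and 11.6 and 11.9 cpm in WT animals. The 2 WT animals were nearly equal, and both KO animals were well above them.

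Several of the other genes that rose encode proteins bound to the cytoskeleton or lying in the membrane, a grouping made after the calls were seen. Actn2, an alpha-actinin best known from the Z-disc of muscle, had 18.7 and 29.0 cpm in KO, against 6.0 and 4.0 cpm in WT gonocytes (log2 2.14 ± 0.54, SE, n = 2 pairs, edgeR adjusted p = 0.0224). Pdlim7, a PDZ and LIM domain protein bound to actin filaments, had 36.0 and 66.3 cpm in KO and 10.3 and 29.2 cpm in WT animals. Of 26 measured genes of the actin cytoskeleton list, which holds neither of these, 0 were called, and Actb had 686 and 548 cpm in KO and 422 and 347 cpm in WT gonocytes (edgeR adjusted p = 0.0521). Tmem63b, a mechanically gated cation channel, had 51.9 and 74.0 cpm in KO and 40.2 and 14.95 cpm in WT animals. Sdc4, a cell surface heparan sulphate proteoglycan, had 374 and 200.3 cpm in KO and 214.7 and 121.6 cpm in WT animals, with overlap between the genotypes. Mark2, a kinase acting on microtubule-associated proteins, had 136.9 and 91.3 cpm in KO and 77.4 and 43.8 cpm in WT gonocytes. Ifitm2, an interferon-induced transmembrane protein, had 157.3 and 86.9 cpm in KO, against 78.2 and 27.1 cpm in WT gonocytes. With Csf2ra, Ifitm2 was 1 of 2 genes called among 13 measured genes of the interferon list, against 0.255% of all genes called higher. The median log2 fold change of the list was 0.47 with 7 of 13 positive, and -0.02 and 0.25 within pairs 1 and 2 (the pair values are not fitted).

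**Figure D3:**
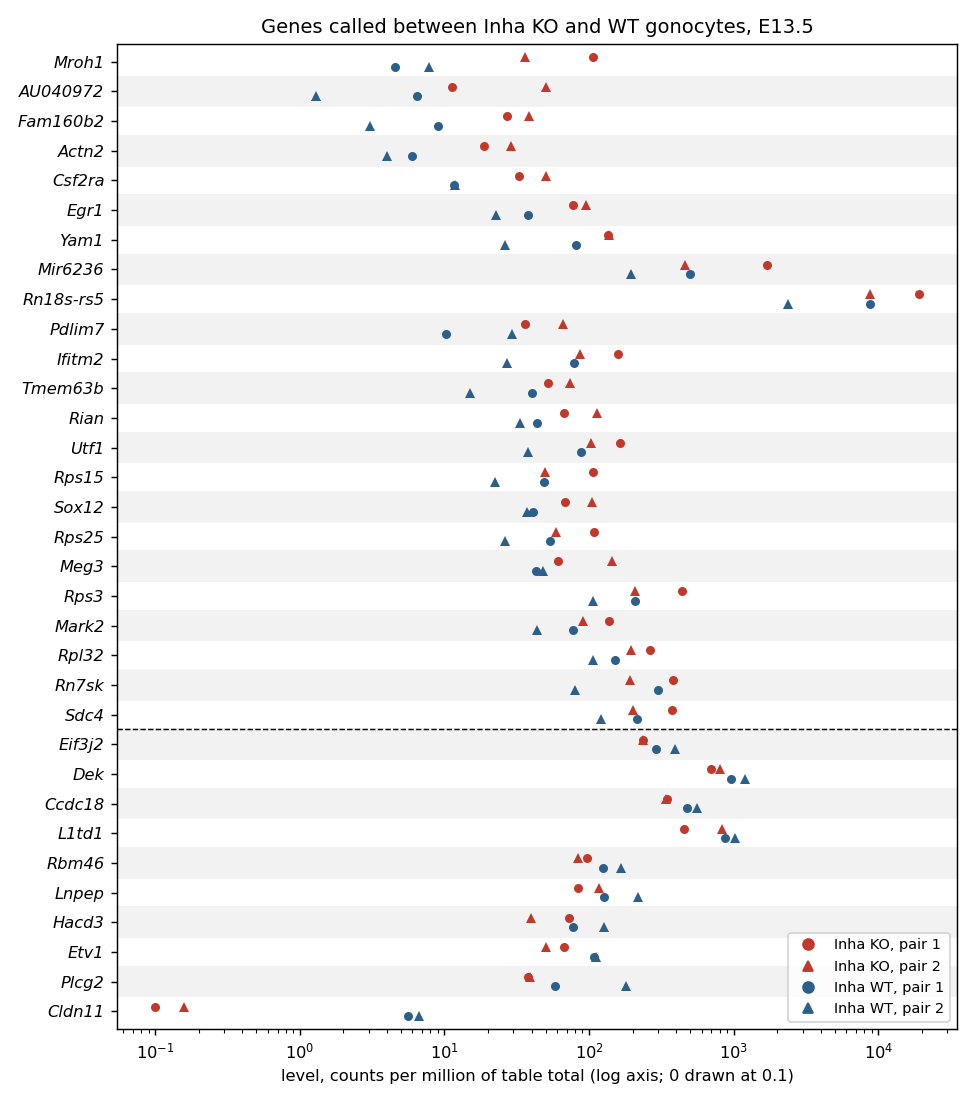
Level of 33 of the 35 called genes in the 4 animals, in cpm on a log axis, with KO in red, WT in blue, pair 1 as circles and pair 2 as triangles. Above the dashed line are 23 genes higher in KO, of which Mir6236, Rn18s-rs5, Rn7sk and Sdc4 have KO and WT values that overlap. Below it are the 10 lower genes, with Cldn11 at 0 and 0.158 cpm in KO (0 drawn at 0.1).

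Of 31 measured early germ cell and pluripotency genes, Utf1 rose and L1td1 fell, against 0.255% of all genes higher and 0.102% lower. The median log2 fold change of the list was 0.13. Utf1, a chromatin-associated factor of pluripotent and germ cells, had 164.7 and 103.6 cpm in KO gonocytes and 87.5 and 38.0 cpm in WT gonocytes (log2 1.08 ± 0.21, SE, n = 2 pairs, edgeR adjusted p = 0.000192). L1td1, an RNA-binding protein of embryonic stem cells, had 454 and 836 cpm in KO, against 877 and 1017 cpm in WT gonocytes. Both KO animals were below both WT animals, although KO pair 2 was close to WT pair 1. Pou5f1, which encodes Oct4, had 52.7 and 67.9 cpm in KO and 36.9 and 33.9 cpm in WT animals and was not called (edgeR adjusted p = 0.415). Dppa5a had 67.4 and 38.6 cpm in KO and 38.3 and 11.7 cpm in WT animals (edgeR adjusted p = 0.0696). Kit, the receptor of stem cell factor, was just outside the threshold at 153.2 and 160.1 cpm in KO and 220.6 and 231.1 cpm in WT gonocytes (log2 -0.62 ± 0.17, SE, n = 2 pairs, edgeR adjusted p = 0.0504). Dppa3, known as Stella, had 612 and 773 cpm in KO and 433 and 658 cpm in WT animals.

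Among 25 measured genes of male differentiation and the piRNA pathway, against 0.255% of all genes called higher, only Sox12 was called. This SoxC transcription factor had 68.6 and 104.7 cpm in KO gonocytes, against 41.0 and 37.1 cpm in WT gonocytes (log2 1.03 ± 0.25, SE, n = 2 pairs, edgeR adjusted p = 0.0203). Of 21 measured meiosis genes, against 0.102% of all genes called lower, Rbm46 fell. It encodes an RNA-binding protein needed for meiosis in mouse germ cells and had 96.2 and 83.9 cpm in KO and 125.6 and 165.7 cpm in WT gonocytes. Etv1, an ETS family transcription factor, had 66.7 and 50.5 cpm in KO, against 107.7 and 112.3 cpm in WT gonocytes (log2 -1.01 ± 0.22, SE, n = 2 pairs, edgeR adjusted p = 0.00338). Prdm10, a zinc finger transcription factor, had 82.2 and 17.2 cpm in KO and 22.5 and 16.01 cpm in WT animals, high in 1 KO animal only, and was not called.

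Egr1, an immediate early transcription factor, had 76.9 and 95.6 cpm in KO gonocytes, against 38.0 and 22.8 cpm in WT gonocytes (log2 1.44 ± 0.27, SE, n = 2 pairs, edgeR adjusted p = 7.59e-05). Both KO values were at least double each WT value. It was the only gene called of 15 measured immediate early and stress genes, against 0.255% of all genes called higher. Of these 15, 13 had a positive fold change (median log2 0.32), against 4950 of all 9798 genes. In Inhba KO against WT at E13.5, 20 of the 23 tested members of this list were also positive, with a median of 0.40. Fos had 6.21 and 18.2 cpm in KO and 5.70 and 3.77 cpm in WT animals and was not called.

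Of 27 measured imprinted genes, against 0.255% of all genes, Meg3 and Rian rose. Both are maternally expressed long noncoding RNAs of the Dlk1-Dio3 cluster, on the same strand of chromosome 12 with 32214 bases between them (Meg3 at chr12:109541001-109571726, Rian at chr12:109603940-109661716). Meg3 had 60.8 and 144.3 cpm in KO and 42.9 and 47.9 cpm in WT gonocytes, and Rian had 66.5 and 113.3 cpm in KO and 43.6 and 33.3 cpm in WT gonocytes. In both, KO pair 2 was the highest animal, and the KO and WT animals did not overlap. The median log2 fold change of the imprinted genes was 0.12, with 17 positive and 10 negative. Of the 10 measured nuclear long noncoding RNAs, Meg3 and Rian, which both lists hold, were the only members called. Neat1 had 35.3 and 131.8 cpm in KO and 39.3 and 19.8 cpm in WT animals.

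Cldn11, which encodes a tight junction protein of Sertoli cells, was nearly absent from KO gonocytes. It had 0 and 1 counts in KO animals and 55 and 57 counts in WT animals, or 0 and 0.158 cpm against 5.59 and 6.71 cpm. Over the summed counts of each genotype the ratio of KO to WT was 0.00897, with an exact 95% counting interval of 0.000225 to 0.0510 (edgeR adjusted p = 0.00512). Other Sertoli cell markers did not share this pattern. Clu, a secreted chaperone, had 13.8 and 18.0 cpm in KO and 3.46 and 5.30 cpm in WT animals, Mro had 12.3 and 19.3 cpm in KO and 2.75 and 8.12 cpm in WT animals, and 7 of the 8 measured markers had a positive fold change without being called. In the Inhba line at E13.5 Cldn11 averaged 0.506 ± 0.480 cpm in KO and 0.629 ± 0.335 cpm in WT gonocytes (SD, n = 4 and 3), so the Inha WT animals held more of it than either group there.

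The other genes that fell had smaller changes. Plcg2, a phospholipase C, had 38.1 and 38.8 cpm in KO and 58.4 and 179.8 cpm in WT gonocytes, so that the KO animals were alike and WT pair 2 was high (log2 -1.5 ± 0.24, SE, n = 2 pairs, edgeR adjusted p = 6.83e-07). Hacd3, an enzyme of very long chain fatty acid elongation, had 73.2 and 39.6 cpm in KO and 77.4 and 126.0 cpm in WT animals, with little difference within pair 1 (log2 -0.12) and a large one within pair 2 (log2 -1.81). Lnpep, a membrane aminopeptidase, had 83.5 and 118.0 cpm in KO and 126.7 and 219.1 cpm in WT gonocytes. Ccdc18 had 345 and 339 cpm in KO, against 474 and 561 cpm in WT animals. Eif3j2, a near copy of the initiation factor gene Eif3j1 with which it may share reads, had 235.8 and 236.7 cpm in KO and 289.8 and 395.6 cpm in WT gonocytes. In all of these both KO animals were below both WT animals.

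Dek, a chromatin protein abundant in dividing cells, had 692 and 802 cpm in KO gonocytes, against 960 and 1203 cpm in WT gonocytes (log2 -0.62 ± 0.16, SE, n = 2 pairs, edgeR adjusted p = 0.0351). Against 0.102% of all genes called lower, it was the only called gene of 38 measured proliferation genes. Of these, 26 had a negative fold change, 10 were lower at an unadjusted p under 0.05 against 4.72% of all genes, and 12 were lower in both KO animals than in both WT animals against 11.3%, or 16 against 17.1% with TMM. The list summed to 14899 and 14737 cpm in KO and 17778 and 18114 cpm in WT gonocytes, with a median log2 fold change of -0.12. This median was -0.029 with library totals only and -0.22 without KO pair 1. Mki67, the proliferation marker Ki-67, had 2599 and 3032 cpm in KO and 3553 and 3866 cpm in WT animals (edgeR adjusted p = 0.226). Cenpe, a kinetochore motor protein, had 901 and 887 cpm in KO and 1107 and 1411 cpm in WT animals (edgeR adjusted p = 0.0673). Not all members had this sign, and Cdk1, the mitotic kinase, had 66.2 and 68.3 cpm in KO and 47.0 and 39.1 cpm in WT gonocytes (edgeR adjusted p = 0.492). Fewer dividing cells and less of these RNAs per cell cannot be told apart in bulk samples.

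None of the 22 measured genes of the activin and Nodal pathway was called. Their median log2 fold change was -0.03, with 10 positive and 12 negative, and 1 gene in each direction had an unadjusted p under 0.05, Tgif1 higher and Smad4 lower. Tgif1 had 79.7 and 74.7 cpm in KO and 41.8 and 54.0 cpm in WT animals (log2 0.61 ± 0.25, SE, n = 2 pairs, edgeR adjusted p = 0.374). Smad4, the common partner of the receptor-activated SMADs, had 74.1 and 98.9 cpm in KO and 114.4 and 110.2 cpm in WT animals (log2 -0.49 ± 0.20, SE, n = 2 pairs, edgeR adjusted p = 0.384). Smad7, an inhibitory SMAD that activin signalling induces, had 50.0 and 91.1 cpm in KO, against 48.8 and 45.9 cpm in WT gonocytes (log2 0.42 ± 0.26, SE, n = 2 pairs, edgeR adjusted p = 0.638). Bambi, a decoy receptor, had 5.29 and 7.91 cpm in KO and 12.6 and 10.2 cpm in WT animals (edgeR adjusted p = 0.71). For Tgif1, Smad4, Smad7 and Bambi the genotypes did not overlap, as for 33.6% of all genes. Neither the 13 measured SMAD2/3 targets nor the 8 measured BMP receptors and targets held a called gene, and their medians were 0.11 and 0.08. No gene was called among 10 cell cycle inhibitors and 15 glycolysis genes. Sdc4 was the only one called among 16 collagen and matrix genes, against 0.255% of all genes called higher.

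The 35 genes differed in base composition from the rest of the table. The longest transcripts of the genes called higher had a median GC content of 56.1%, those of the genes called lower 40.2%, and those of all 9779 genes with a value 48.0%. Across these genes the fold change had a Spearman rho of 0.265 with GC content, 0.111 in pair 1 and 0.276 in pair 2. From the lowest to the highest quartile of GC content the median log2 fold change was -0.10, -0.05, 0.05 and 0.18. Of the 25 genes called higher, 17 lay in the highest quartile, and 6 of the 10 called lower lay in the lowest. The cytosolic ribosomal protein genes had a median GC content of 50.7% and a median exonic length of 1998 bases, against 5012 bases over all genes. The shortest quartile of genes, which held 60 of these 70 genes, had a median log2 fold change of 0.12. When the trend of each library on GC content and length was removed before the fit, all 35 genes kept their direction, with a median absolute log2 fold change of 0.89 in place of 1.05. Rn18s-rs5 was then the only gene called by edgeR, with 664 genes at an unadjusted p under 0.05, and the prior degrees of freedom were 9.80 in that fit. The median log2 fold change of the cytosolic ribosomal protein genes was then 0.31. Whether base composition and length had a part in the calls was not tested further.

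**Figure D4:**
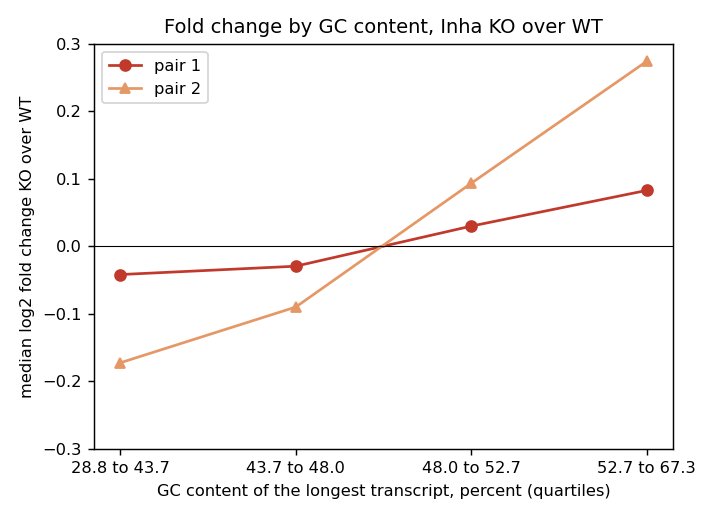
Median log2 fold change of Inha KO over WT (vertical axis) in quartiles of the GC content of each gene's longest transcript (horizontal axis, percent), in pair 1 (circles) and pair 2 (triangles). Both lines rise with GC content, between -0.04 and 0.08 in pair 1 and between -0.17 and 0.27 in pair 2.

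By position, no called gene lay on chromosomes 1, 16, X or Y, and chromosomes 7, 9 and 17 held 4 each. None of the 61 tested genes within 10 Mb of Inha (chr1:75507077-75510366) and none of the 617 on chromosome 1 was called, and 3 of the 61 (4.92%) had an unadjusted p under 0.05. Apart from Meg3 with Rian and Yam1 with Rn18s-rs5, no 2 called genes lay within 1 Mb of each other.

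The Inhba line at E13.5 was examined for the genes called in Inha KO gonocytes. In Inhba KO against WT, all 12 tested Sertoli cell markers and all 7 tested interstitial markers had a positive fold change. Their median log2 fold changes were 1.07 and 1.64, with 0 called. Of 5 endothelial markers 1 was positive and 4 negative, and the 9 germ cell markers had a median of 0.02. Whether somatic RNA had a part in the comparison of both lines was not tested. Of the 35, 33 were tested in it, and 0 of them had an adjusted p under 0.05 or an unadjusted p under 0.05 with edgeR. The Inhba KO against WT comparison itself gave 2 called genes of 13279 (0.0151%), or 15 with DESeq2, and 358 genes had an unadjusted p under 0.05 (2.7%). Of the genes higher in Inha KO, 10 were higher and 14 lower in Inhba KO, and of those lower in Inha KO, 2 were lower and 7 higher. Their median absolute log2 fold change in the Inhba line was 0.13, and AU040972 and Egr1 exceeded 1.5-fold there, both higher in KO. Rps25 averaged 399.6 ± 13.6 cpm in Inhba KO and 405.5 ± 11.3 cpm in Inhba WT gonocytes (SD, n = 4 and 3). Utf1 averaged 198.5 ± 32.9 cpm in Inhba KO and 219.9 ± 25.3 cpm in Inhba WT gonocytes. Egr1 averaged 31.8 ± 9.25 cpm in Inhba KO and 18.1 ± 9.95 cpm in Inhba WT gonocytes (log2 0.80 ± 0.39, SE, edgeR adjusted p = 1.00).

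The difference between the KO effects of both lines was tested in a joint edgeR fit of 9783 shared genes. It called 53 genes (0.542%), 50 with a more positive effect in Inha (0.511%) and 3 with a more negative one (0.0307%), and 14 of them were among the 35. Among the 14 were Mroh1, Fam160b2, Actn2, Csf2ra, Mir6236, Rn18s-rs5, Utf1, Sox12, Rps15, Rps25, Mark2 and Rpl32. The 35 were selected in the same Inha animals that the contrast uses, so differences for these genes follow in part from that selection. For Rps25 the effect in Inha minus that in Inhba was 1.03 ± 0.13 on the log2 scale (SE, edgeR adjusted p = 0.0140), and for Utf1 it was 1.23 ± 0.21 (edgeR adjusted p = 0.0409). None of the genes that fell was among the 14, with -1.73 ± 0.50 for Plcg2 (edgeR adjusted p = 0.164) and -1.13 ± 0.32 for Etv1 (edgeR adjusted p = 0.159). The difference for Egr1 was 0.63 ± 0.59 (edgeR adjusted p = 0.694). The Inha line was sequenced in run 2 and the Inhba line in run 1, and most animals of the joint fit belong to the Inhba line, which lends the Inha animals its estimate of spread. In the joint fit Inha KO against WT itself gave 189 called genes, 165 higher and 24 lower, and 18 of the 35 were among them. Those not called in it included Egr1 (edgeR adjusted p = 0.141), Etv1 (0.0650), Plcg2 (0.0818), L1td1 (0.422) and Dek (0.169). Without the litter block the same contrast called 0 genes.

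**Figure D5:**
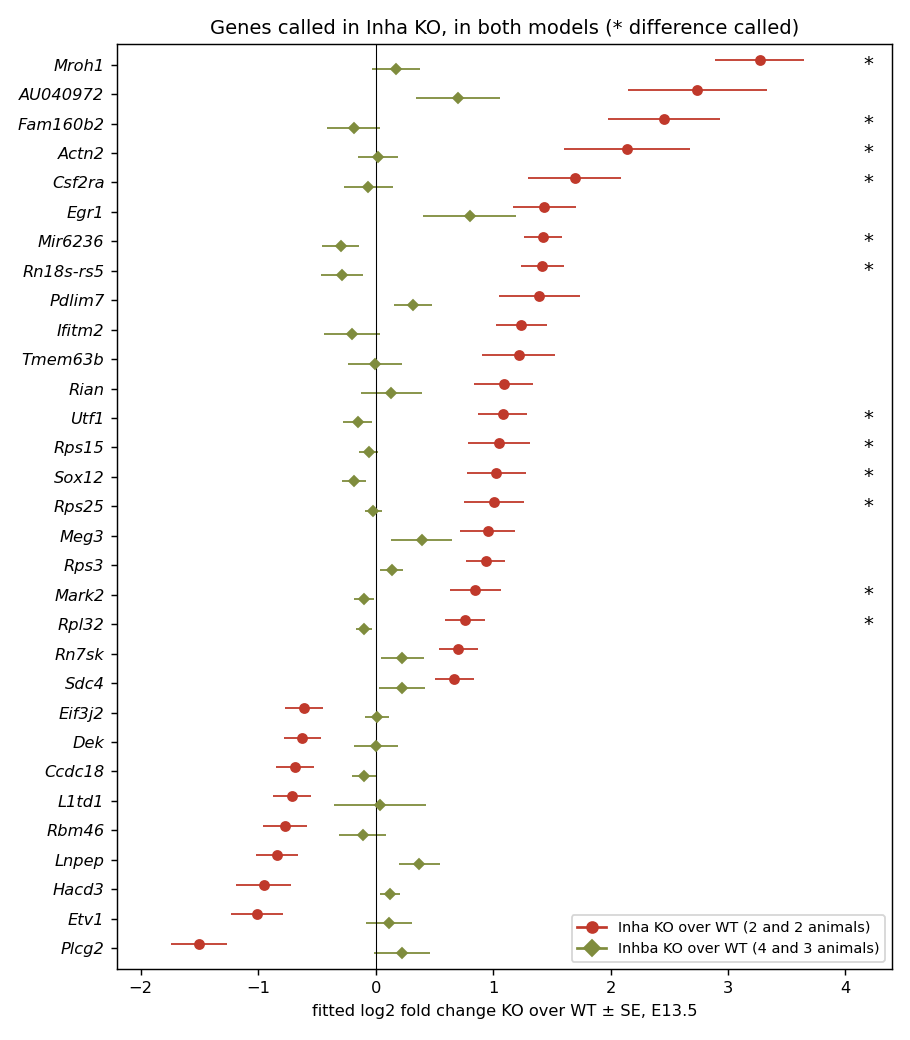
Fitted log2 fold change with its standard error for 31 genes called in Inha KO gonocytes, in Inha KO over WT (red circles, 2 and 2 animals) and in Inhba KO over WT at E13.5 (green diamonds, 4 and 3 animals), with an asterisk where the difference between both was called (12 of the genes plotted). The red values lie outside 0.6 on either side of 0, and all green values but those of AU040972 and Egr1 lie within 1.5-fold of 0.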

How the data were processed

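The authors deposited raw counts for each gene, 1 column per animal. Single-end reads had been aligned to mouse build GRCm38 by STAR 2.5.2b within RNAsik and assigned to genes by featureCounts (Subread 1.5.2), with Ensembl annotation. Picard 2.26.3, FastQC 0.11.5 and MultiQC 1.0 are further tools of the submitters' processing notes. The authors had removed mitochondrial genes and genes under 2 cpm in 2 animals from the Inha table, so GC content, ribosomal RNA share and totals refer to the genes kept. cDNA was amplified from total RNA with one of 2 kits, and which kit was used for which animal is not given in the sources used here. An animal has 2 sequencing records but a single column, and the sources used here do not say how they were merged.

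Groups and litter pairs came from the sample titles. For 1 Inhba KO animal at E13.5 the genotype field disagreed with the title, which was followed. A figure legend of the study gives 3 KO and 4 WT for this comparison, where the titles give 4 KO and 3 WT animals. No result of the Inhba line or the joint fit was checked with this animal regrouped or left out. The 8 columns of other animals, at E15.5, were not used. Littermates deviated together from their genotype means (Pearson r = 0.257 across genes). No 2 libraries agreed within sampling noise. Nothing in the labels names further cultures or repeats, so the embryo was the unit. For most genes in the Inha fit, p-values and standard errors rest on a spread taken from genes of similar level. They do not measure the spread of that gene between these embryos.

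Genotypes were compared by the quasi-likelihood test of edgeR 4.0.16 (R 4.3.3) with TMM scaling, robust estimation and a term for the litter pair. All 9798 genes reached 2 cpm in 2 or more animals. Alternatives were DESeq2 1.42.0, limma-voom (limma 3.58.1), other scalings and filters, no fold threshold, no block, and each animal left out. Scripts were tested on simulated data. Annotation was GENCODE M21, in which 9779 of 9798 gene IDs were found. Genes were named from among the 15 largest rises and 15 largest falls of those called, the members of each list with the smallest p, up to 4, and genes of the study's text. Not every list member so picked is named. Mark2, Cyc1, Cdk1, Bop1 and Eif3j1 were named after their values were seen. Members and lists were chosen with earlier results of these data known. Values of 2 called genes are not reported here, although counts and medians over genes include them.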

Additional observations from a re-analysis of the deposited data

Results flagged for a closer look

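Of 34 called genes with values in the Inhba table, 1 had an Inhba KO animal at E13.5 far from the other 3. For L1td1 this animal had 212.8 cpm, and the nearest and farthest of the others had 527 and 558 cpm. Chance gives such a gap in about 1 of 20 groups (5%).

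For 14 genes the KO effect in Inha differed from that in Inhba at E13.5 by the joint edgeR test. For the 12 of them reported here, the differences, Inha minus Inhba on the log2 scale, were 3.10 for Mroh1, 2.63 for Fam160b2, 2.09 for Actn2, 1.75 for Csf2ra, 1.72 for Mir6236 and 1.70 for Rn18s-rs5. They were 1.23 for Utf1, 1.20 for Sox12, 1.11 for Rps15, 1.03 for Rps25, 0.94 for Mark2 and 0.85 for Rpl32. In each of these 12 the Inha effect was positive, and the Inhba effect lay between -0.30 and 0.17. The 12 were taken from genes called in the same Inha animals, so this pattern follows in part from the selection.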

How the results depend on the processing

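The count of 35 genes was within 1.5 times of itself with RLE factors (34) and without ribosomal genes in the normalisation (34). The same held with at least 10 cpm (52) and with limma-voom (37, of which 25 were among the 35 and 12 were not). The settings with no filter and with filterByExpr kept the same 9798 genes and so repeated the main fit (35). With no fold threshold the count could not change, as all 35 genes with an adjusted p under 0.05 already exceeded 1.5-fold. The count was 66 with library totals only, which moved the median log2 fold change of all genes to 0.10. It was 58 without robust estimation and 12 with DESeq2, where 2090 adjusted p were not given. Littermates share a litter by the labels, and with no replicate block, that is, without the pairing, 0 genes were called, with a smallest adjusted p of 0.209. Leaving out 1 animal gave 16 and 19 genes without KO pair 1 and KO pair 2, and 3 and 0 without WT pair 1 and WT pair 2, a range of 0 to 19, where a lone animal is assumed to vary like the other genotype. Another 2 fits with the block were chosen after seeing the data. Removing the GC and length trend left 1 gene, and restricting the table to genes with such a value gave 45.

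The 6 ribosomal protein genes called higher became 13 with library totals, 10 with at least 10 cpm, 1 with DESeq2, 0 without the block and 0 with the trend removed. The median log2 fold change of the ribosomal protein list, 0.41, ranged from 0.31 to 0.57 with 1 animal left out. The median log2 fold change of the respiratory chain genes, 0.37, ranged from 0.18 to 0.57 with 1 animal left out, and that of the proliferation genes, -0.12, from -0.22 to -0.14 and was -0.029 with library totals. The litter comparison gave 240 genes, 74 with DESeq2 and 131 with limma-voom. The difference between lines gave 53 genes, 258 with DESeq2 and 0 without the block. The Inhba comparison gave 2 genes and 15 with DESeq2.

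Signs turned for few of the genes named. Sox9 was at -0.079 with limma-voom and -0.22 without the block, and at -0.073 without KO pair 1, -0.37 without KO pair 2 and -0.91 without WT pair 1. Without KO pair 1, Prdm10 was at -0.27, Cyc1 at -0.013 and Rn7sk at -0.078, and Rn7sk was at -0.11 without WT pair 2. Ddx4 was at 0.29 without KO pair 2 and 0.086 without WT pair 1, and Dppa3 at -0.054 without WT pair 1. A count of 3 in a library is 0.252 to 0.475 cpm, which limits genes such as Cldn11. The cause of these changes was not tested.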
